A study of Mus musculus with 96 samples.

Results

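The 7 globin genes in the table are Hba-x, Hba-a1 and Hba-a2 of the alpha cluster and Hbb-y, Hbb-bh1, Hbb-bs and Hbb-bt of the beta cluster. They were found by their symbols, and all 7 were present among 19836 genes. Transcripts were counted in 96 single cells of C57BL/6 mouse embryos, which the labels call pre-haematopoietic stem cells (pre-HSCs) at E11.5 and haematopoietic stem cells (HSCs) in the fetal liver later. The groups were 48 pre-HSCs of the aorta-gonad-mesonephros (AGM) region and 16 of the yolk sac, both from embryonic day E11.5 and both sorted as Ter119-CD11b-CD144+c-kit+EPCR+. The fetal liver gave 16 HSCs at E12.5, sorted as Ter119-Sca-1+c-kit+EPCR+, and 16 at E14.5, sorted as Ter119-Sca-1+c-kit+CD48-CD150+. Age, tissue and sorting gate therefore cannot be told apart between E11.5 and the liver, nor age and gate between the liver stages. No mutant, transgene or treatment is named, and the labels tie no cell to an embryo or litter, so each group was 1 sample and no difference below was tested.

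Haemoglobin carries oxygen as a tetramer of alpha-like and beta-like chains, so red cell precursors make both kinds of chain. In the mouse embryo, primitive red cells that arise in the yolk sac use the embryonic genes Hba-x (zeta), Hbb-y (epsilon-y) and Hbb-bh1 (beta-h1), together with the adult-type alpha genes. Definitive red cells made in the fetal liver use Hba-a1 and Hba-a2 with Hbb-bs and Hbb-bt. All gates excluded Ter119, an antigen of maturing red cells. The embryonic share below is the percentage of globin reads from Hba-x, Hbb-y and Hbb-bh1, and the alpha-like share is the percentage from Hba-x, Hba-a1 and Hba-a2.

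In GRCm38 with GENCODE M21, the alpha-like genes lie on the plus strand: Hba-x at chr11:32276400-32278116, Hba-a1 at chr11:32283511-32284465 and Hba-a2 at chr11:32296489-32297298. The beta-like genes lie on the minus strand: Hbb-y at chr7:103851749-103853216, Hbb-bh1 at chr7:103841637-103843164, Hbb-bs at chr7:103826534-103828096 and Hbb-bt at chr7:103812524-103813996. All 7 identifiers in the table matched this annotation.

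How far reads can be split between the adult copies matters for each value below. The coding sequences of Hbb-bs and Hbb-bt differed at 1 of 441 bases, and those of Hba-a1 and Hba-a2 at 1 of 426 bases. In both pairs the differing base is in the coding part of exon 3, which is shown here from the GENCODE transcripts, 5′ to 3′, with the differing base in capitals. The stretches lie at chr7:103826668-103826793 for Hbb-bs, chr7:103812659-103812784 for Hbb-bt, chr11:32284263-32284388 for Hba-a1 and chr11:32297080-32297205 for Hba-a2.
Hbb-bs: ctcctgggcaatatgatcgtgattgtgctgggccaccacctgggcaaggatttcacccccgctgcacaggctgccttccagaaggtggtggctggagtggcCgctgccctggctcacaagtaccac
Hbb-bt: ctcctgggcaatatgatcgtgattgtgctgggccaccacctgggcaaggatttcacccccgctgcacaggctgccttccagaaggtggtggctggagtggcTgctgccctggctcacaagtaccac
Hba-a1: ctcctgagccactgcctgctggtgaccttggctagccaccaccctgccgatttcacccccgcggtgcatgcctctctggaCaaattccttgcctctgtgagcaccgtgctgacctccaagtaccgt
Hba-a2: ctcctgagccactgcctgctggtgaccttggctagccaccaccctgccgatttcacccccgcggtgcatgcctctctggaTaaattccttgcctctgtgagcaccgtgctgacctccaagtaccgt
Of the 50-base windows in each gene's transcripts, 27.7% of Hba-a1, 10.7% of Hba-a2, 46.8% of Hbb-bs and 41.7% of Hbb-bt occurred in no other globin gene of 14 compared. For Hba-x, Hbb-y and Hbb-bh1 the share was 100%. Reads from the shared stretches cannot be told apart, and how the authors' counting treated them is not given in the sources used here. Levels of the single adult copies are therefore uncertain, whereas sums over a pair and the embryonic genes do not depend on that split, as far as reads that map to several genes were counted at all.

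The sequence before the start of the genes is shown because members within a cluster differed in level between the stages. The 150 bases before the RefSeq start (GRCm38.p6) were searched on both strands for short motifs of kinds found in many erythroid promoters. They were the CACCC box, the box with the letters CCAAT, the GATA motif and, as a form of the TATA box, TATAA. The sequences, 5′ to 3′ on the gene's strand with the motifs in capitals, leave out bases that GENCODE counts as exon, which removes the window of Hba-x and of Hba-a1 entirely. They lie at chr7:103853217-103853357 (Hbb-y, minus strand), chr7:103827929-103828011 (Hbb-bs, minus), chr7:103813997-103814073 (Hbb-bt, minus) and chr11:32296342-32296488 (Hba-a2, plus).
Hbb-y: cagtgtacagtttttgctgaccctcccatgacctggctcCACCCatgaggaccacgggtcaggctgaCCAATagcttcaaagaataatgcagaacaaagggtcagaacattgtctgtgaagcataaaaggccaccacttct
Hbb-bs: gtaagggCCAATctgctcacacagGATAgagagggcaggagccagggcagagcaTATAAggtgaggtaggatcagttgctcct
Hbb-bt: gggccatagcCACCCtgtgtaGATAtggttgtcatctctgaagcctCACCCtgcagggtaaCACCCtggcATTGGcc
Hba-a2: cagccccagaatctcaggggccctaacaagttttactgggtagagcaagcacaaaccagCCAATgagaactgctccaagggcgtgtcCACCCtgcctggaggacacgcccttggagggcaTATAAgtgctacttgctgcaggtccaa
In the full windows CACCC was present in 6 of 6 members with an entry, beside 37.4% of 32851 promoters. CCAAT was absent from the window of Hba-x alone, beside 24.5% of promoters holding it. TATAA was absent from Hbb-y alone, beside 14.2%. GATA was present in Hba-x, Hbb-bs and Hbb-bt, beside 35.7%. The windows of Hba-a1 and Hba-a2 were identical at 96.1% of aligned positions, and those of Hbb-bs and Hbb-bt at 73.7%. A match is a description of these letters and not evidence of a bound site.

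Cells had from 250235 to 1926882 reads and from 1011 to 11094 genes with a read. Levels are given as CPM, reads of a gene scaled to a common library total, and were pooled over the cells of a group, with exact 95% Poisson intervals. Intervals from reads cover counting error only and take reads as independent, which reads amplified by PCR without molecular identifiers are not. The exact binomial intervals for shares of cells take the cells of 1 sample as independent. The labelled identity was checked on 10 HSC and progenitor markers, among them Kit, Ptprc, Cd34 and Procr, whose summed CPM was above 0 in every cell except E12.5 liver cell 8. That cell had no read of the 10 markers and 1011 genes in all. It held Csf1r, Mrc1, C1qa, C1qb and C1qc, genes of macrophages, at 21592 CPM in sum. Cd68, Adgre1, Vcam1 and Timd4, the other 4 of the 9 macrophage markers, were at 0. In the other 15 E12.5 cells the macrophage list summed to at most 322 CPM. E14.5 cell 7 had 6 of the 9 macrophage markers at 992 CPM in sum, beside 8 of the 10 HSC and progenitor markers at 1311 CPM. At E14.5, cells 3, 8, 13 and 16 had Slc4a1, the anion exchanger of the red cell membrane, at 345, 223.2, 486 and 220.7 CPM, and the other 92 cells of the study had no read of it. Where leaving out E12.5 cell 8 or the Slc4a1 cells ends a globin gene's call between groups or moves its level by over 1.5 times, the value without them is given.

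Globin transcripts were found in 89 of 96 cells, the 7 cells without any being from the AGM. Pooled over cells, the 7 genes came to 76.2 CPM in the AGM (95% interval 74.0 to 78.4) and 91.1 CPM in the yolk sac (87.2 to 95.2). In the liver they came to 981 CPM at E12.5 (967 to 995) and 28282 CPM at E14.5 (28210 to 28355). Without the 4 cells with Slc4a1, the E14.5 level was 200.7 CPM (193.9 to 207.8), which is below the E12.5 level. The E12.5 level was 815 CPM without cell 8, and the yolk sac level was 56.0 CPM without cell 12. E14.5 liver was thus the highest group with the 4 cells and E12.5 liver without them, and both E11.5 groups were below either.

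Per cell, the summed level ran from 0 to 644 CPM in AGM with a median of 28.4. In yolk sac it ran from 1.02 to 983 with a median of 31.4. In E12.5 liver it ran from 35.02 to 13399 with a median of 624, and in the 12 E14.5 cells without Slc4a1 from 13.9 to 1509.6 with a median of 176.8. The ranges overlapped between all groups. At least 100 CPM of globin was present in 7 of the 48 cells from the AGM (14.6%, 6.07 to 27.8) and 4 of the 16 from the yolk sac (25%, 7.27 to 52.4). In the liver it was present in 13 of 16 cells at E12.5 (81.2%, 54.4 to 96.0) and 12 of 16 at E14.5 (75.0%, 47.6 to 92.7). Of those 12 cells, 8 were among the 12 without Slc4a1.

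**Figure D1:**
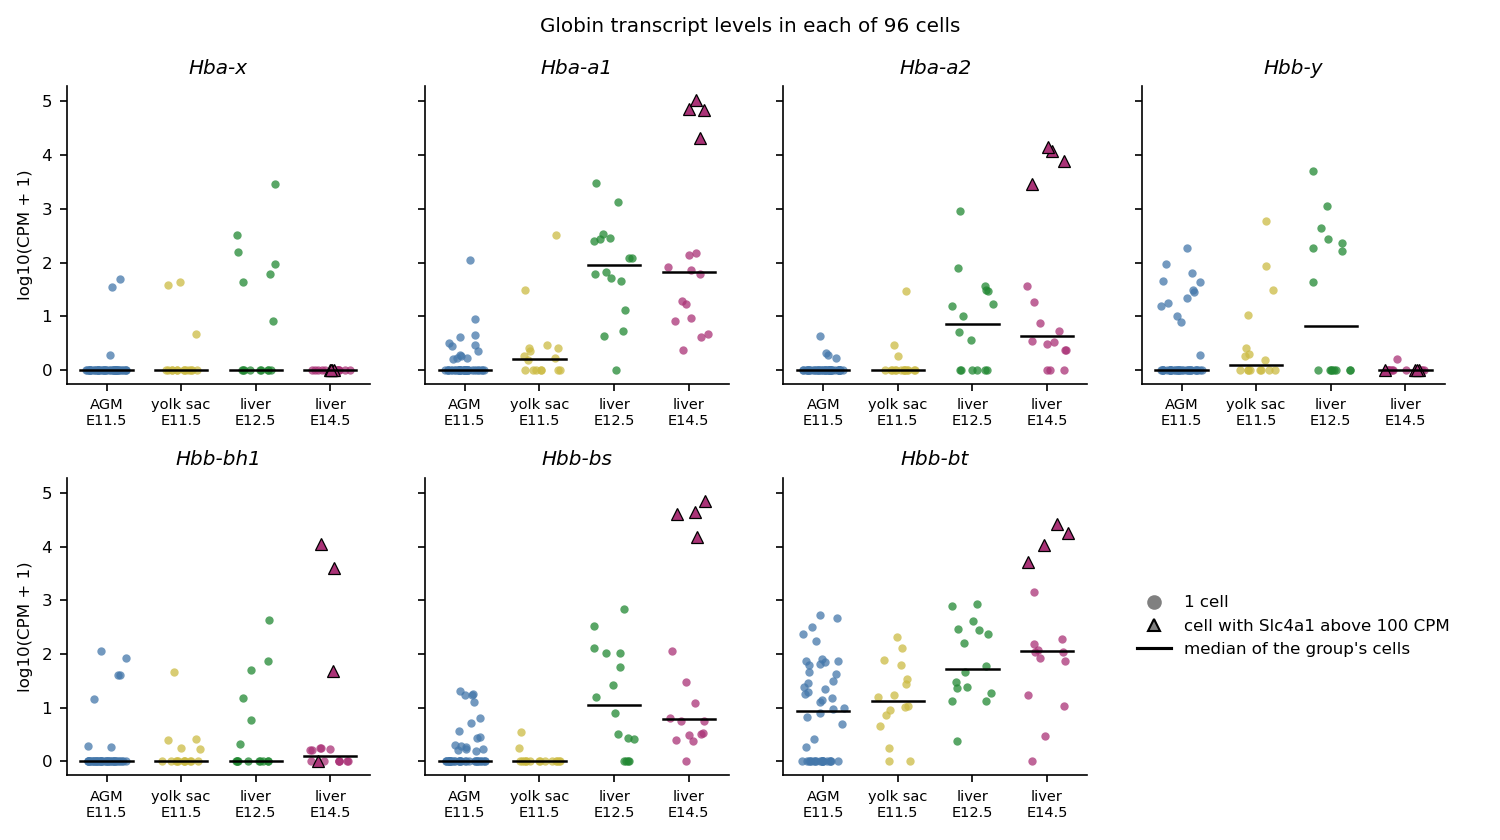
Level of each globin gene, as log10(CPM + 1), in each of 96 cells by group. Each point is 1 cell, triangles mark the E14.5 cells with Slc4a1 above 100 CPM, and bars are medians over cells. Hba-x and Hbb-y lie near 0 in all E14.5 cells, while the triangles stand above every other cell for Hba-a1, Hba-a2, Hbb-bs and Hbb-bt.

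Among the embryonic genes, Hba-x, the zeta chain and the first alpha-like gene of the cluster, was read in 3 AGM, 3 yolk sac, 7 E12.5 and 0 E14.5 cells. Its pooled level was 1.86 CPM in AGM cells, 4.71 in yolk sac cells and 98.6 in E12.5 liver (94.2 to 103.2). The E11.5 levels rested on single cells: they were 0.546 CPM without AGM cell 41 and 1.84 CPM without yolk sac cell 3. At a limit of 3 counts, the 0 of 16 cells at E14.5 allows a share of cells with a read of up to 18.8%, and E12.5 was at least 677-fold higher against a floor of 3 reads over the E14.5 group. At E12.5 the 7 cells with Hba-x had 7, 80, 112, 110, 728, 565 and 277 reads in cells 1, 2, 3, 5, 8, 11 and 13, and the other 9 had 0. Cell 8 gave 38.7% of the group's Hba-x reads, and without it the level was 61.2 CPM.

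Hbb-y, the epsilon-type beta-like gene, had the same stage pattern as Hba-x. It was read in 13 AGM, 8 yolk sac, 8 E12.5 and 1 E14.5 cell, with pooled levels of 11.2 CPM (10.4 to 12.1), 31.9 (29.6 to 34.3), 279 (272 to 287) and 0.049 (0.00123 to 0.271). The single E14.5 read was in cell 9, which has no Slc4a1, and the E12.5 to E14.5 ratio was 5746 with a counting interval of 1031 to 226985. The E12.5 cells fell into 8 with at least 42 reads and 8 with none. Cells 1, 2, 3, 5, 7, 8, 11 and 13 had 42, 356, 308, 331, 280, 1262, 1968 and 771 reads. No cell had an intermediate number, and all 7 cells with Hba-x were among these 8. In the yolk sac, cell 12 gave 70.9% of the Hbb-y reads, and without it the level was 9.65 CPM.

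Hba-x and Hbb-y encode partners of 1 embryonic haemoglobin, and the cells that held both were counted at a minimum of 3 reads each. There were 7 of 8 such cells among the Hbb-y cells at E12.5, 3 of 4 in the yolk sac and 1 of 12 in the AGM. The AGM cells with Hbb-y had it at 6.79 to 183.6 CPM, and cells 4, 27, 28 and 29, at 42.1 to 92.4 CPM of Hbb-y, had no Hba-x read. In AGM cell 36, the cell with most genes detected, Hba-x at 34.3 CPM stood beside Hbb-y at 183.6, Hbb-bh1 at 39.8 and Hba-a1 at 110.6 CPM. The reverse case was AGM cell 41, where 80 reads of Hba-x were the sole globin reads. Over the 16 E12.5 cells the Spearman correlation of Hba-x with Hbb-y was 0.90, and that of Hba-a1 with Hbb-y 0.83. These are descriptions over cells of 1 sample that share a gate and a library preparation.

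Hbb-bh1, the other embryonic beta-like gene, did not follow Hba-x and Hbb-y at E14.5. Its pooled levels were 6.17 CPM in AGM cells (5.56 to 6.83), 3.63 in yolk sac cells (2.88 to 4.51), 18.6 at E12.5 (16.7 to 20.7) and 742 at E14.5 (731 to 754). The E14.5 reads came from 3 of the 4 Slc4a1 cells, with 3731 reads in cell 3, 0 in cell 8, 60 in cell 13 and 11487 in cell 16. Hba-x and Hbb-y had 0 reads in all 4. Without those cells the level was 0.308 CPM (0.100 to 0.719), from 5 cells with 1 read each. In cells 3, 13 and 16 Hbb-bh1 therefore stood alone among the embryonic genes, and its levels differed more between the 4 cells than those of any adult gene. AGM cells 43 and 44 also had Hbb-bh1 without Hbb-y, at 56 and 126 reads. In the AGM, cell 27 gave 38.98% of the reads, and in the yolk sac cell 3 gave 91.4%, without which the level was 0.338 CPM.

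The adult alpha gene Hba-a1 was read in 13 AGM, 9 yolk sac, 15 E12.5 and 16 E14.5 cells. Its pooled levels were 2.24 CPM (1.88 to 2.65), 14.9 (13.3 to 16.6), 295 (287 to 303) and 13838 (13787 to 13889). Cell 36 held 74.1% of the AGM reads and cell 12 held 81.3% of the yolk sac reads, and without them the levels were 0.589 and 2.89 CPM. At E12.5, per-cell values ran from 0 to 2993 CPM with a median of 93.8, and without cell 2 the pooled level was 180.7 CPM. In the 4 Slc4a1 cells Hba-a1 was at 20942 to 108503 CPM, and in the other 12 at 1.39 to 151.6 CPM with a median of 17.1. Pooled over those 12 cells, its level was 40.6 CPM (37.6 to 43.8). The 2 sets of E14.5 cells did not overlap, and the 12 cells without Slc4a1 lay within the E12.5 range. Hba-a2, its neighbour, had pooled levels of 0.0995, 1.26, 30.5 and 1859 CPM, and 6.72 CPM without the Slc4a1 cells. Its AGM level, from 6 reads, was 0.0505 CPM without cell 36, its yolk sac level 0.186 CPM without cell 12 and its E12.5 level 18.6 CPM without cell 8. Hba-a1 took 95.7%, 92.2%, 90.6% and 88.2% of the reads of the pair in the order AGM, yolk sac, E12.5 and E14.5, within the limit on splitting them given above. Per kilobase of exon, E14.5 Hba-a1 was at 17042 CPM and Hba-a2 at 2787 CPM. Exon length takes no account of the shared stretches, which are a larger part of Hba-a2 than of Hba-a1.

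The adult beta genes behaved differently from each other. Hbb-bs was read in 17 AGM, 2 yolk sac, 12 E12.5 and 15 E14.5 cells, at pooled levels of 2.17, 0.224, 76.1 (72.2 to 80.1) and 8680 CPM (8640 to 8721). Hbb-bt was read in 29, 14, 16 and 15 cells, at 52.4 (50.6 to 54.2), 34.6 (32.2 to 37.1), 182.7 (176.7 to 188.9) and 3163 CPM (3138 to 3187). Hbb-bt thus was the globin found in most cells, 74 of 96. It gave over 50% of the globin reads in 41 of the 76 cells with at least 10 globin reads, and it was the sole globin in 10 of them.

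In the 4 Slc4a1 cells the balance was the other way, with 2.47 to 3.80 Hbb-bs reads for each Hbb-bt read. The Hbb-bs levels were 15167 to 69850 CPM there, and the Hbb-bt levels 5087 to 26816 CPM. Pooled over the other groups, Hbb-bt took 96.0% of adult beta reads in AGM cells, 99.4% in yolk sac cells, 70.6% at E12.5 and 89.0% in the E14.5 cells without Slc4a1. Of 63 cells with at least 10 reads of Hbb-bt, 29 had none of Hbb-bs. Outside the 4 cells, Hbb-bs exceeded Hbb-bt in 16 cells. At E12.5 these were cells 2, 3, 5, 7, 8 and 11, which had Hbb-y, and cell 9, which had 5 reads of Hbb-bs and 1 of Hbb-bt and no Hbb-y. Over the 16 E12.5 cells, Hbb-bt correlated with the other 6 members at -0.19 to -0.08, while Hbb-bs correlated with Hbb-y at 0.78. Among adult beta reads the ratio of the copies thus differed between cells, although most of their sequence is shared.

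Without the Slc4a1 cells, Hbb-bt was at 136 CPM (131 to 142.03) at E14.5, of which cell 2 gave 41.1%. Hbb-bs was then at 16.8 CPM (14.9 to 18.9), of which cell 9 gave 68.5%, and at 5.90 CPM without cell 9 as well. With Hbb-bt left out, summed globin was 23.8 CPM in AGM cells, 56.6 in yolk sac cells, 798 at E12.5 and 25120 at E14.5. Cells with at least 100 CPM then numbered 3 in the AGM and 2 in the yolk sac, and 10 and 7 at the liver stages. For the 4 groups in that order, the embryonic share was then 81.0%, 71.1%, 49.7% and 2.96%. Leaving out an adult gene can only raise this share. The AGM share was then above that of the yolk sac, whereas with Hbb-bt they were 25.3% and 44.1%.

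**Figure D2:**
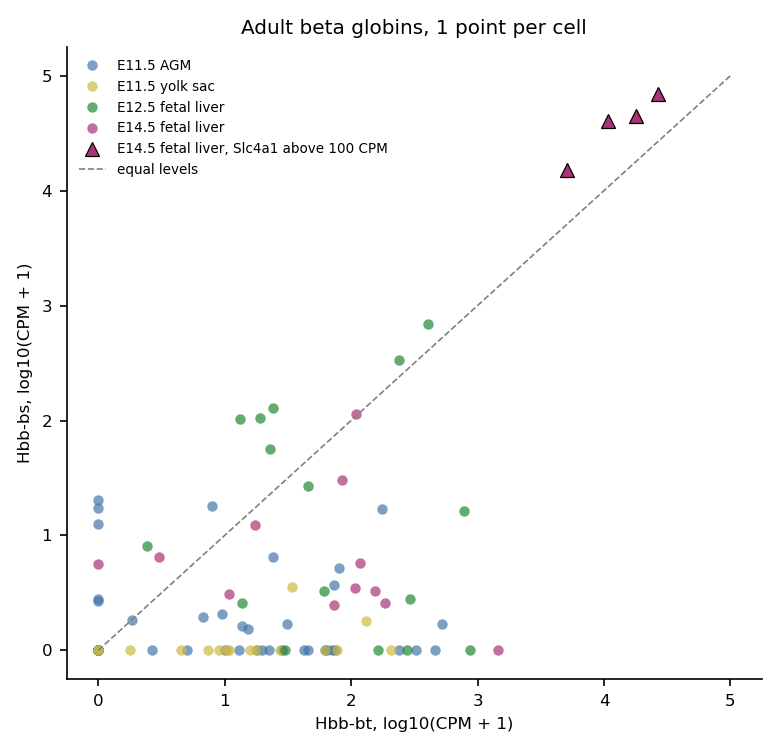
Hbb-bs against Hbb-bt in each of 96 cells, both as log10(CPM + 1), coloured by group. The dashed line marks equal levels. The 4 E14.5 cells with Slc4a1 lie above it at 2.47 to 3.80 Hbb-bs reads per Hbb-bt read, and many other cells lie on the floor of the plot with Hbb-bt and no Hbb-bs.

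For the ratio of embryonic to adult globin, the pooled embryonic share was 25.3% in AGM cells (24.04 to 26.6), 44.1% in yolk sac cells (41.9 to 46.3), 40.4% at E12.5 (39.7 to 41.1) and 2.63% at E14.5 (2.58 to 2.67). This is 2.95, 1.27, 1.47 and 37.1 adult reads for each embryonic read. The adult copies share sequence with each other and the embryonic genes do not. If shared reads went uncounted, adult reads alone were lost and the embryonic shares are too high, which the intervals do not cover and which was not tested. Without the Slc4a1 cells, the E14.5 share was 0.184% (0.0676 to 0.400), or 6 embryonic reads and 542 adult reads for each of them. It was 1.10% without cell 16 alone. The embryonic share was thus lowest at E14.5 on either count. The reads of the 3 embryonic genes were most at E14.5 with the Slc4a1 cells, 15284 against 7552 at E12.5, nearly all of them Hbb-bh1.

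Single cells were more divided than the pooled shares. Among cells with at least 10 globin reads, the median embryonic share was 4.75% over 30 AGM cells, 1.97% over 14 yolk sac cells, 5.55% over 16 E12.5 cells and 0.054% over 16 E14.5 cells. The embryonic genes gave over 50% of globin reads in 10 AGM, 3 yolk sac, 4 E12.5 and 0 E14.5 cells, and no reads at all in 14, 5, 7 and 8 cells. At E12.5 the share was 10.4% to 76.4% in the 8 Hbb-y cells and 0% to 0.685% in the other 8, so that those 2 sets did not overlap; Hbb-y is itself part of the share. At E14.5 the highest share was 5%, in cell 1, which had 20 globin reads. The Slc4a1 cells had 2.66%, 0%, 0.108% and 4.84%.

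**Figure D3:**
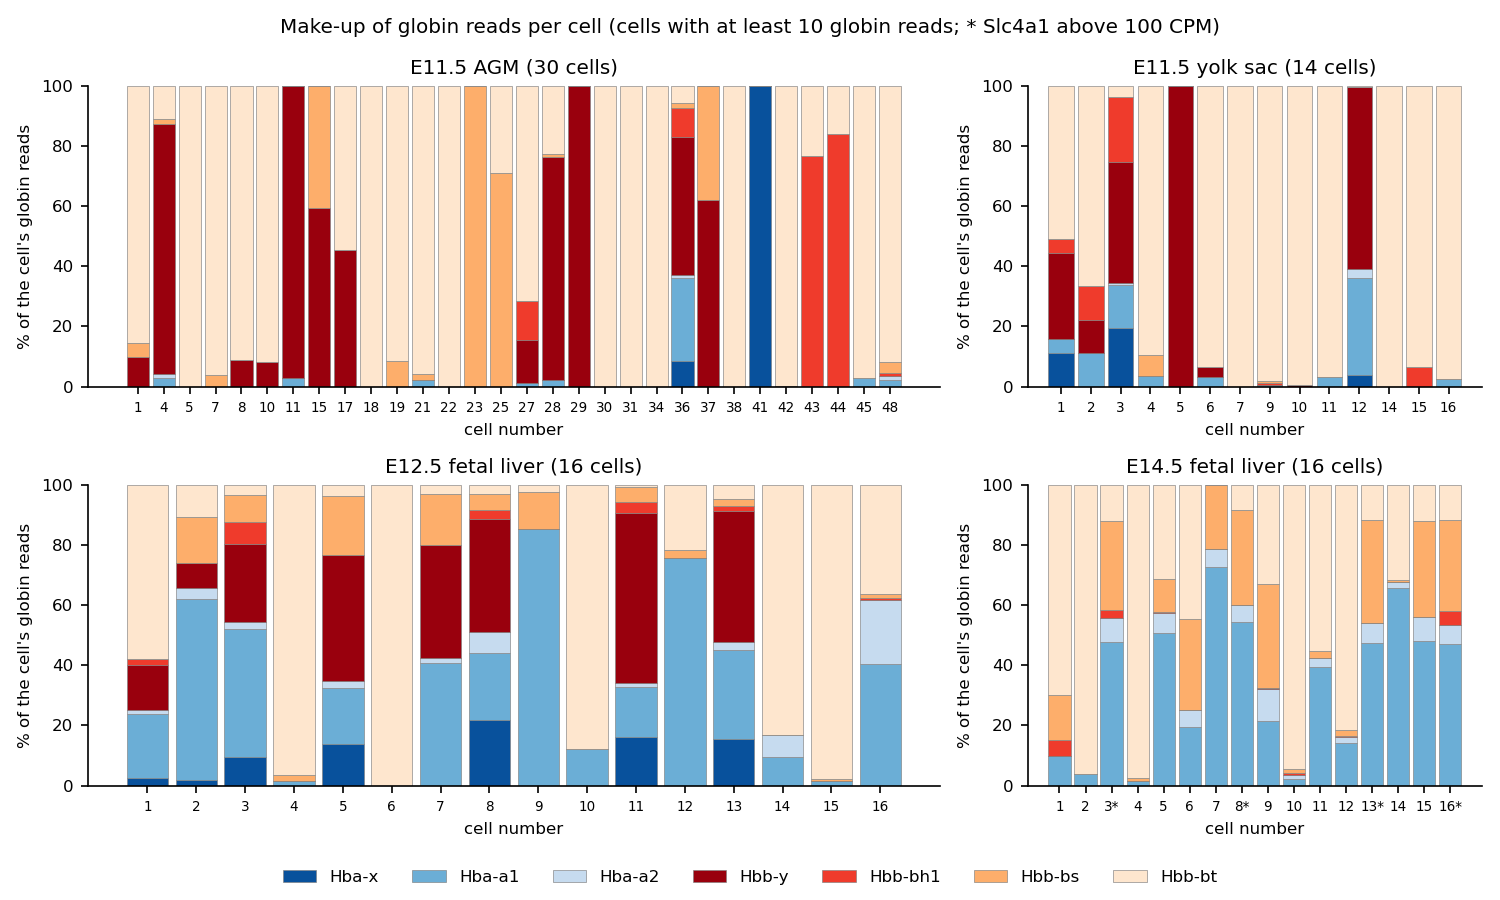
Share of each globin gene in the globin reads of single cells, for the 76 cells with at least 10 such reads, with cell numbers on the horizontal axis and an asterisk for Slc4a1 above 100 CPM. Blue parts are alpha-like and red or orange parts beta-like genes, the darker reds being embryonic. The 4 asterisked cells share nearly 1 make-up with 53.3% to 60.2% alpha-like reads, whereas cells of the other groups range from pure Hbb-bt to pure Hbb-y or Hba-x.

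For the ratio of alpha to beta chains, the pooled alpha-like share was 5.51% in AGM cells (4.87 to 6.21), 22.9% in yolk sac cells (21.1 to 24.8), 43.3% at E12.5 (42.5 to 43.97) and 55.5% at E14.5 (55.4 to 55.6). As alpha reads for each beta read, these are 0.0583, 0.297, 0.762 and 1.25. The share was 2.81% in AGM without cell 36 and 11.7% in yolk sac without cell 12. In E14.5 liver it was 23.6% without the Slc4a1 cells (22.1 to 25.1), or 0.308 alpha reads for each beta read. A share of reads depends on transcript length as well as on molecules. Per base of exon, the shares were 4.44%, 19.3%, 38.3% and 53.8%. Exon length takes no account of sequence shared between copies. Unique 50-base windows were 27.7% and 10.7% for Hba-a1 and Hba-a2, and 46.8% and 41.7% for Hbb-bs and Hbb-bt. If shared reads went uncounted, the alpha-like share could be too low, which was not tested.

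The 4 Slc4a1 cells were alike in this ratio, at 55.7%, 60.2%, 54.1% and 53.3% alpha-like in cells 3, 8, 13 and 16. The 12 other E14.5 cells ran from 1.63% to 78.8% with a median of 28.6%. The median was 38.6% in E12.5 cells, 2.77% in yolk sac cells and 0% in AGM cells, where 21 of 30 cells with at least 10 globin reads had no alpha-like read. The 8 E12.5 cells with Hbb-y had 25.3% to 65.7%, which includes the values of the 4 Slc4a1 cells. With Hbb-bt left out, which can only raise the alpha-like share, the pooled shares were 17.7%, 36.8%, 53.2% and 62.5%.

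**Figure D4:**
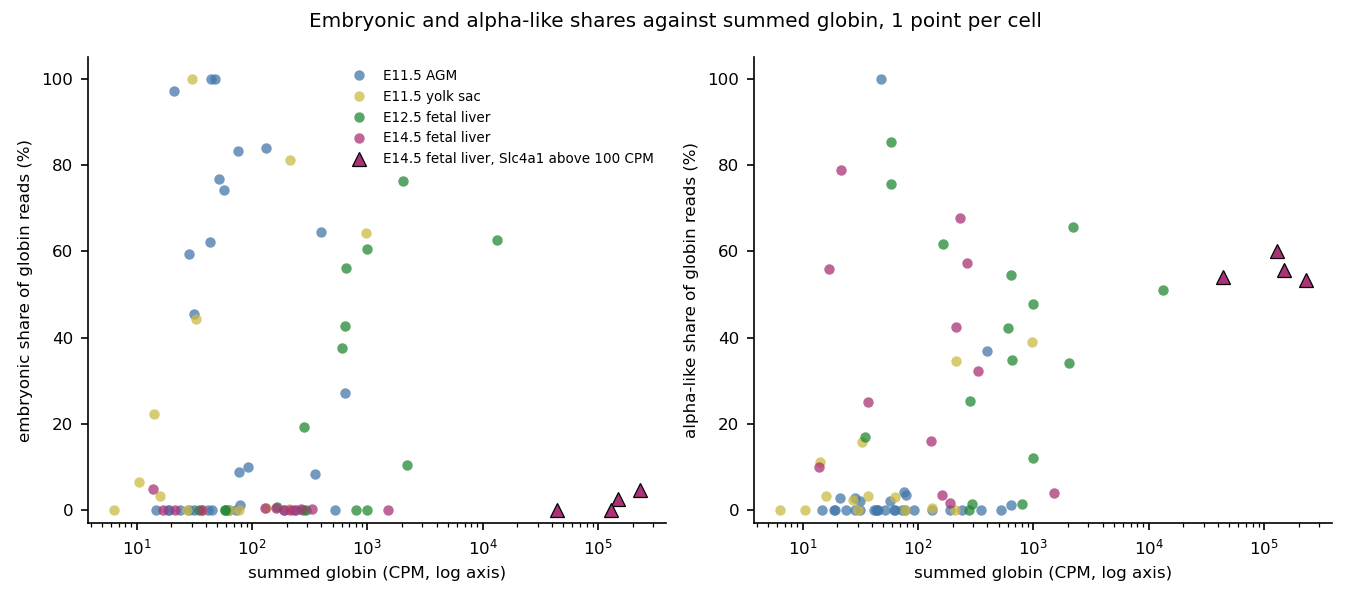
Embryonic share (left) and alpha-like share (right) of globin reads against summed globin CPM on a log axis, 1 point for each of the 76 cells with at least 10 globin reads. The E14.5 cells with Slc4a1 lie at 44195 CPM and above with embryonic shares of at most 4.84%, and E12.5 cell 8 at 13399 CPM with 62.5%.

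The 4 Slc4a1 cells held 99.4% of the E14.5 globin reads, with summed levels of 149444, 129097, 44195 and 230708 CPM in cells 3, 8, 13 and 16. Globin was thus 4.42% to 23.1% of all their reads. The 7 erythroid markers reported here, which include Slc4a1, summed to 1763 to 8728 CPM in them and to 0 to 199.8 CPM in the other 12 cells. Alas2, the first enzyme of haem synthesis in red cells, Klf1 and Gata1, regulators of red cell genes, and Rhag, a membrane channel, were read in all 4 cells as well. Of the 10 HSC and progenitor markers, 5 to 9 were read in each of the 4 cells. Their sum was 815, 452, 2275 and 766 CPM in cells 3, 8, 13 and 16, with a median of 791 CPM. In the other 12 cells it ran from 975 to 2903 CPM with a median of 1469, a range that includes cell 13. Ly6a, which encodes Sca-1, was at 63.5 to 154.5 CPM in all 4, Kit was read in cells 3, 13 and 16, and Procr in cells 3, 8 and 13. Ptprc, Hlf, Meis1 and Flt3 were each at 0 in 2 of the 4, and Cd34 was at 0 in cell 8. The 5 hepatocyte markers had no read, and of the 9 macrophage markers Cd68 alone was read, in cell 3. Whether more than 1 cell or free RNA contributed to these wells was not tested.

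The E12.5 cells with Hbb-y had globin with few reads of most other erythroid genes. In all 8, Slc4a1, Gata1 and Rhag were at 0, and Alas2 and Klf1 had 1 read in 1 cell each. This did not set them apart, since the other E12.5 cells also had no Slc4a1 or Rhag read, and Gata1 in 1 cell. Among the 8, further erythroid genes were read in some cells. Hemgn was read in cells 1, 2 and 13 and Epor in cell 11, where it had 309 reads. Rhd was at 627 CPM in cell 8 and had 1 read in cell 13. Kit was read in 7 of the 8, with 2 reads in cell 5 and 4 in cell 11, and Ptprc in 6. Cell 8 had neither, with the highest summed globin of the group, 13399 CPM, beside the macrophage genes given above. The 12 AGM cells with Hbb-y had no Slc4a1 or Gata1 read either, nor had any other AGM cell. Kit was read in 11 of the 12 and Ptprc in 9. Rhag was read in 3 of them, with 113 reads in sum, Alas2 and Klf1 in 2 each and Epor in 1. At E12.5, 99.6% of the Alas2 reads were in cell 15, which had no embryonic globin and 295 CPM of adult globin, 326 of its 333 globin reads being Hbb-bt. Whether free RNA from lysed red cells contributed was not tested.

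**Figure D5:**
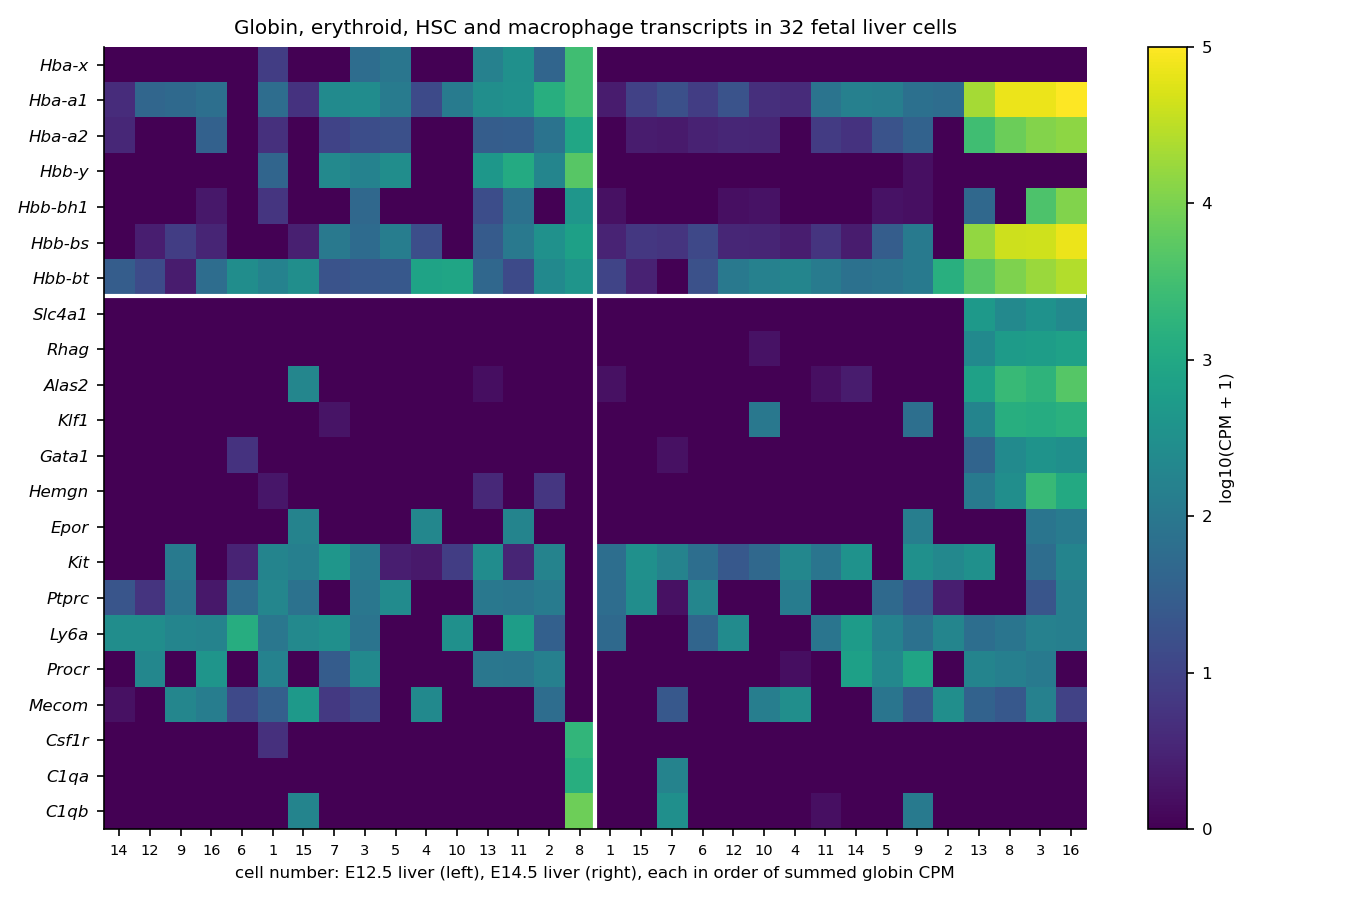
Levels, as log10(CPM + 1) in colour, of the globin genes (top) and of erythroid, HSC and macrophage genes (below) in 32 fetal liver cells, ordered by summed globin within E12.5 (left of the white line) and E14.5 (right). The erythroid genes from Slc4a1 to Hemgn are read in the last 4 E14.5 cells and seldom elsewhere, while E12.5 cells, with or without Hbb-y, show none of Slc4a1 and Rhag.

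Between groups, a gene was called past 4-fold from the log2 ratio of pooled CPM after 1 CPM was added, which understates the change of low genes. In yolk sac against AGM, Hba-a1 alone was higher (log2 ratio 2.29) and no member lower, where 2.09% of 15239 genes were called higher and 5.5% lower. Without yolk sac cell 12 the ratio was 0.26, and with 10 CPM added in place of 1 it was 1.02. When groups under 3 reads were set to 3 and nothing was added, Hba-a2 was higher too (3.66) and Hbb-bs lower (-3.28). Both rested on few yolk sac reads, 28 of Hba-a2 with 85.7% in cell 12, and 5 of Hbb-bs with 80% in cell 4. In E12.5 liver against AGM, 5 of 7 were higher, with Hba-a1 at 6.51, Hba-x 5.12, Hba-a2 4.84, Hbb-bs 4.60 and Hbb-y 4.52, beside 5.72% of all genes higher and 11.1% lower. Hbb-bt at 1.78 and Hbb-bh1 at 1.45 were under 4-fold. In E12.5 liver against yolk sac 7 of 7 were higher, from 2.08 to 5.98, beside 7.99% of all genes higher and 8.03% lower. Without cell 8, Hbb-bh1 was at 1.62 in that comparison and 6 were higher. It was also under 4-fold without E12.5 cell 3 (1.82) or 11 (1.61) or yolk sac cell 6 (1.98) or 7 (1.99), and Hbb-bt was without E12.5 cell 4 (1.84). With 10 CPM added, 5 were higher, Hba-a2 being at 1.85 and Hbb-bh1 at 1.07. This comparison, the one before and the next share the E12.5 cells.

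In E14.5 against E12.5 liver, 5 members were higher and 2 lower, beside 8.87% of all genes higher and 8.45% lower. Hbb-bs had a log2 ratio of 6.82, Hba-a2 5.88, Hba-a1 5.55, Hbb-bh1 5.24 and Hbb-bt 4.11, while Hba-x had -6.64 and Hbb-y -8.06. Without the Slc4a1 cells none was higher and 6 were lower, beside 8.27% of all genes higher and 9.78% lower. The ratios were then -2.83 for Hba-a1, -2.03 for Hba-a2, -2.11 for Hbb-bs, -3.91 for Hbb-bh1 and -0.42 for Hbb-bt. The calls of Hba-a2 and Hbb-bs rested on few cells. Without E12.5 cell 8 as well, they were at -1.35 and -1.95 and 4 members were lower, beside 9.74% of all genes. Without E12.5 cell 2 they were at -1.76 and -1.45, and without single E14.5 cells they reached -1.87 and -1.95. The median over the 7 members was 5.24 with the Slc4a1 cells and -2.83 without them, beside 0 for all genes in both cases, and Hba-x lies below these medians also at its bound. The direction of the 5 members thus depended on 4 of 16 cells, whereas Hba-x and Hbb-y were lower either way.

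Other genes of the red cell programme were taken from lists. Of 16 genes of haem synthesis and iron handling, 6 were past 4-fold higher in E14.5 than in E12.5 liver and none lower, with a median log2 ratio of 1.78, beside the 8.87% higher and 8.45% lower of all genes. Alas2 had 5.27, Cpox and Fech, later enzymes of the pathway, 4.19 and 3.34, Slc25a38, a mitochondrial glycine carrier, 3.40, and Blvrb, a biliverdin reductase, 2.66. Without E14.5 cell 8, Blvrb was at 1.84 and Alad, an early enzyme of the pathway, at 1.80, against 2.27 with it, and without cell 16 Alad was at 1.98. Without the Slc4a1 cells none of the 16 was higher and 3 were lower, Alas2 at -3.43 (0.185 CPM, from 3 reads, against 11.8, a 63.9-fold difference with an interval of 21.6 to 312), Fech at -2.28 and Abcb10, a mitochondrial transporter, at -3.89. Beside them, 9.78% of all genes were lower. Each of the 3 calls ended without 1 cell of E12.5: Alas2 was at 0.17 without cell 15, Abcb10 at 0.41 without cell 7, and Fech at -1.57 without cell 2 and -1.32 without cell 10. Without E12.5 cell 8 as well, Hmox1, the haem-degrading oxygenase, was past 4-fold higher, beside 8.24% of all genes. Of its E14.5 reads, 86.0% were in 1 cell. With the Slc4a1 cells kept and E12.5 cell 8 left out, 8 of the 16 were higher, beside 8.92% of all genes. Against AGM, E12.5 liver had 2 of the 16 higher, Alas2 (3.50) and Hmox1 (2.26), and none lower, beside 5.72% and 11.1% of all genes. Both rested on 1 cell, Alas2 being at -0.10 without cell 15 and Hmox1 at -2.41, and so lower, without cell 8.

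Of 13 genes of the red cell membrane, 8 were higher and 1 lower in E14.5 than in E12.5 liver, beside 8.87% and 8.45% of all genes. The 8 include Slc4a1, which defines the 4 cells, and Ank1, an ankyrin of the membrane skeleton, which was at 1.57 without cell 13. The lower gene was Aqp1, a water channel, whose E12.5 reads were all in cell 2. Kel, a blood group protein, had 1 read at E12.5, and its E14.5 level of 125 CPM was 2377-fold higher (426 to 93916). For genes with 0 reads at E12.5 the ratio is a lower bound, against the floor of 3 reads over the group, which was 690-fold for Rhag, 437-fold for Slc4a1 and 319-fold for Ermap. Rhd had a log2 ratio of 5.21 and Sptb, a spectrin chain of the membrane skeleton, 5.07. Of the Rhag reads in the whole table, 99.96% were in the 4 Slc4a1 cells. Without those cells 0 of 13 were higher and 3 lower, Epb41 (-4.02), Rhd (-2.90) and Aqp1, beside 8.27% and 9.78% of all genes. Rhd was at 0.24 without E12.5 cell 8, which left 2 lower, and 72.8% of the E12.5 Epb41 reads were in 1 cell. Among 12 erythroid regulators, 4 were higher and none lower with all cells. Hemgn had a log2 ratio of 6.64 and Gata1 5.33, Trim10 was at least 629-fold higher from 0 reads, and Klf1 was 4385-fold higher (787 to 173247) from 1 read. Without the cells Klf1 was 279-fold higher (49.7 to 11082), from 2 cells, and Zfpm1, a partner of GATA1, was lower at -2.05, or -1.33 without E12.5 cell 4. Epor, the erythropoietin receptor, had -1.05 with the cells and -1.61 without them. In E12.5 liver against AGM, 1 of the 13 membrane genes was higher, Rhd (8.29 CPM against 1 read), and 1 lower, Rhag (0 reads against 3.15 CPM), beside 5.72% and 11.1% of all genes. Of the Rhd reads 99.4% were in cell 8, the cell with macrophage genes, and without it the ratio was 0.05. The Rhag ratio was -1.48 without AGM cell 11. Of the 12 regulators Epor (3.17) was higher and none lower.

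Of 16 genes with roles in globin switching or in the fetal programme, none was past 4-fold in E14.5 against E12.5 liver, with a median of 0.14. Beside this, 8.87% of all genes were higher and 8.45% lower. Nr2c1, a nuclear receptor that binds embryonic globin promoters, had 1.96, and Sox6, a repressor of embryonic beta-like genes, had -1.08. All 102 E14.5 reads of Sox6 were in the Slc4a1 cells, and without them Sox6 was at least 62.5-fold lower and Nr2c1 higher at 2.28. That is 1 of the 16 in each direction, beside 8.27% of all genes higher and 9.78% lower. Of the E12.5 reads of Sox6, 90.9% were in cell 13, without which it was at -1.11. Nr2c1 was at 1.07 without E14.5 cell 6 and at 1.77 without cell 7. Hmga2, a chromatin protein of fetal stem cells, had -1.04, and Bcl11a, a repressor of embryonic and fetal beta-like globins, had -0.35 with the Slc4a1 cells and -0.34 without them. In E12.5 liver against AGM, Bcl11a had 0.77 and Lin28b, an RNA-binding protein of the fetal state, 0.70, both under 4-fold. Nr2c1 alone was lower, at -2.09, or -1.52 without AGM cell 39, beside 5.72% of all genes higher and 11.1% lower.

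The genes whose levels were most like summed globin over the 32 liver cells were ranked by Spearman correlation among 8702 genes. They were Chac2 (0.65), Hemgn (0.63), Nxpe2 (0.62), Prkar2b (0.60), Btg2 (0.58), Ssx2ip (0.58), Ank1 (0.57), Sptb (0.57), Slc4a1 (0.57) and Blvrb (0.56). Of the 10, 8 had a read in all 4 Slc4a1 cells, and each was read in at most 17 of 32 cells, so many values are tied at 0. Ank1 and Slc4a1 were read in the 4 Slc4a1 cells alone of the 32, so their correlations rest on those cells. Over all 96 cells, 1 of the 10 was again among the 10 most alike. Btg2 was then at -0.33 and Prkar2b at -0.07, and the rest ran from 0.13 to 0.37. Reads per cell correlated with summed globin at -0.07 and genes detected at 0.03 over the same 32 cells.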

How the data were processed

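The deposited table holds whole-number read counts, not normalized, for the genes of all 96 cells. Per the labels' protocols, each cell was sorted into its own well, cDNA was made with a SMART-Seq kit, and transposome tagging with PCR gave the libraries. The submitters' processing notes name FastQC, Trimmomatic 0.36, STAR, HTSeq and the mm10 build. The annotation, the strand setting and the handling of reads that map to several genes are not given in the sources used here. All columns were matched to samples by name.

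Rows that share a symbol were summed (113 duplicates among 19949 rows). Each group was pooled by adding its cells' reads, which were then expressed as CPM of total reads. Intervals are 95% exact Poisson or exact Clopper-Pearson intervals, and floors are 3 reads over a group. A gene counts as past 4-fold from the log2 ratio of pooled CPM plus 1, among genes with at least 30 reads over all cells. Per-cell shares need at least 10 globin reads. No test was made, since each group is 1 sample. No doublet caller was run and no cell was filtered out. The log2 ratios were tested on simulated counts, in which each gene had 1 rate over the cells of a group and genes with few reads were not changed. That simulation does not cover levels that rest on single cells or few reads. Transcripts and coordinates are from GENCODE M21, and 6 of 7 promoters were matched by symbol in the RefSeq table. Icam4, Eraf, Ahsp, Alb and Serpina1a of the lists were not analysed here, and 3 further genes are not reported here and were left out of the lists, marker sums and ranking.

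The members and gene lists were chosen with earlier results of these data known. The text names the 7 members and Slc4a1, at most 6 genes of each list with the largest ratio in a comparison, and the 10 genes most like summed globin. Bcl11a, Ank1, Hmox1 without cell 8, and the cells named singly, were named after their values were seen. Python 3.11.15, numpy 2.4.6, pandas 2.3.3 and scipy 1.17.1 were used.

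Alternatives were thinned reads, the mean of each cell's CPM, median-of-ratios scaling, other thresholds, other added values and leaving out cells. Division by exon length, omission of Hbb-bt, omission of E12.5 cell 8 and leaving each cell out of the calls were chosen after seeing the data.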

Additional observations from a re-analysis of the deposited data

How the results depend on the processing

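No paired analysis was possible because the replicate numbers only name cells and no test was made. Labels of change below follow counting error, which is narrow at these depths, and the cause of each difference was not tested. Groups are always in the order AGM, yolk sac, E12.5 liver, E14.5 liver. With each cell left out in turn, pooled globin ranged over 59.2 to 78.4, 56.0 to 98.2, 815 to 1062 and 17639 to 31183 CPM. The embryonic share ranged over 21.9% to 30.3%, 30.1% to 50.1%, 32.2% to 49.1% and 1.10% to 3.50%, and the alpha-like share over 2.81% to 6.90%, 11.7% to 25.98%, 36.8% to 46.4% and 53.9% to 57.0%. Shares of cells with at least 100 CPM stayed within 12.8% to 14.9%, 20% to 26.7%, 80.0% to 86.7% and 73.3% to 80.0%. The single cells that moved summed globin or the pooled shares by over 1.5 times were AGM cell 36, yolk sac cell 12 and E14.5 cell 16. Single members were moved by other cells as well, 4, 6, 4 and 6 of the 7 in these groups.

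Without the Slc4a1 cells, E14.5 liver had 200.7 CPM of globin, an embryonic share of 0.184% and an alpha-like share of 23.6%. The log2 ratios of E14.5 over E12.5 then turned from higher to lower for Hba-a1 (-2.83), Hba-a2 (-2.03), Hbb-bh1 (-3.91), Hbb-bs (-2.11) and Hbb-bt (-0.42). With E12.5 cell 8 left out too, they were -2.64, -1.35, -3.44, -1.95 and -0.40. When cells were weighted equally by averaging their CPM values, globin was 116, 1469 and 34785 CPM in the last 3 groups, the embryonic share 49.7% at E12.5 and 2.73% at E14.5, and the alpha-like share 6.24%, 25.4% and 45.5% in the first 3. With each cell thinned to 250000 reads, which also weights cells equally, globin was 112.5, 1472 and 34729 CPM in the last 3 groups. The embryonic share was then 48%, 50.3% and 2.74%, and the alpha-like share 45.5% at E12.5 and 55.3% at E14.5. Median-of-ratios scaling gave 70.1, 97.9, 1003 and 33618 CPM. It moved the median log2 ratio of all genes from -0.20 to -0.03 for yolk sac over AGM and from -0.20 to -0.08 for E12.5 over AGM, and changed no call of a member.

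Division by exon length gave embryonic shares of 27.1%, 46.8%, 42.9% and 3.29% and alpha-like shares of 4.44%, 19.3%, 38.3% and 53.8%. With Hbb-bt left out, globin was 23.8, 56.6, 798 and 25120 CPM, the embryonic share 81.0%, 71.1%, 49.7% and 2.96%, the alpha-like share 17.7%, 36.8%, 53.2% and 62.5%, and 43.8% of E14.5 cells had at least 100 CPM. At a threshold of 10 CPM the shares of cells were 64.6%, 81.2%, 100% and 100%, and at 1000 CPM 0%, 0%, 18.8% and 31.2%. At 1000 CPM of Slc4a1 0 cells would be set apart, and at 10 CPM again 4. At 2-fold, 29.6% of all genes were past the threshold in yolk sac over AGM, 41.7% in E12.5 over AGM, 39.2% in E12.5 over yolk sac and 36.9% in E14.5 over E12.5, against 7.59%, 16.9%, 16.01% and 17.3% at 4-fold. With 10 CPM added, 3 member ratios were no longer past 4-fold, Hba-a1 in yolk sac over AGM and Hba-a2 and Hbb-bh1 in E12.5 over yolk sac. With a floor of 3 reads 2 more were, Hba-a2 and Hbb-bs in yolk sac over AGM. Without E12.5 cell 8, 20 of 21 member ratios kept their call and Hbb-bh1 over yolk sac did not. Intervals cover counting error only, with reads or cells taken as independent. The split of reads within the adult pairs is uncertain, and differences between embryos are not covered.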
